A study of Mus musculus with 50 samples.

Results

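The genes described here are 9 parts of the machinery that modifies, cuts and reads out the Notch receptor, followed in the thyroid of mice given antibodies that block Notch ligands or receptors. They are the O-fucosyltransferase Pofut1, the fringe glycosyltransferases Lfng, Mfng and Rfng, the protease Adam10, the γ-secretase subunit Ncstn, the adaptor Numb, the DNA-binding protein Rbpj and its coactivator Maml1. They were taken by name for these roles and not by a threshold on a measured value, although earlier results of these data were known when they were chosen. They make up 9 of the 52636 genes in the deposited tables. All 9 had enough counts to be tested in every comparison.

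Notch is a cell surface receptor that is activated by Jagged and Delta-like ligands on neighbouring cells. On its way to the surface it is decorated with O-linked fucose by Pofut1, and fringe enzymes extend that fucose with N-acetylglucosamine, which changes how well each ligand family activates it. Ligand binding exposes the receptor to Adam10 and then to γ-secretase, which holds nicastrin, the product of Ncstn. The freed intracellular part enters the nucleus and joins Rbpj and a Mastermind-like protein such as Maml1 to switch on target genes, while Numb, an endocytic adaptor, opposes Notch in many tissues.

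The study sequenced total RNA of whole thyroids from male C57BL/6 mice as single-end reads of 50 bases, in 10 groups of 5 libraries. The ages given are 10 to 14 weeks in the treatment protocol and 10 to 12 weeks in the design text. All mice had 1 intraperitoneal antibody dose. Controls received 40 mg/kg of an anti-ragweed isotype antibody (RW). Ligand blockade, aJ1aJ2, used anti-Jag1 and anti-Jag2 at 20 mg/kg each. Receptor blockade, aN1aN2, used anti-Notch1 at 5 mg/kg and anti-Notch2 at 10 mg/kg, and aN1aN2aN3 added anti-Notch3 at 20 mg/kg. RW, aJ1aJ2 and aN1aN2 were collected at 15 hours and at 5 days. The 7-day libraries form separate sets, called set 1 (RW and aJ1aJ2) and set 2 (aJ1aJ2 and aN1aN2aN3) here. An isotype group of set 2 was not analysed here, so aN1aN2aN3 is compared only with aJ1aJ2 of the same set. The design text also mentions daily injections of the thyroid hormones T4 and T3, and no label says which mice had them. The antibodies act on the whole animal and the RNA is from the whole gland, so in these data fewer cells of a type and less RNA per cell cannot be told apart. Nothing in the labels ties a library to 1 mouse, so the p-values measure only the spread between these samples, which may be technical.

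Libraries held between 15271242 and 52835846 counts. Tg, which encodes thyroglobulin, the hormone precursor protein of thyrocytes, made up 0.45% to 42.4% of counts in the 40 libraries outside set 2, and 5 of those 40 were below 10%. In the 10 libraries of set 2 it made up 1.15% to 6.50%. All 10 thyrocyte markers were detected in every group. Tg, 1 of these 10, made up most of their summed counts in every library. In RW replicate 1 at 5 days it was 38.8% of counts, against 39.2% for all 10. The sum therefore follows mainly Tg. Skeletal muscle genes reached 13.2% of counts in RW replicate 3 at 5 days and 13.4% in aJ1aJ2 replicate 4 of set 2.

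The members were present at unequal levels. In the GENCODE M21 annotation of GRCm38, Lfng lies at chr5:140607320-140615545, Ncstn at chr1:172066013-172082795, Maml1 at chr11:50255634-50292311, Pofut1 at chr2:153241533-153270247 and Mfng at chr15:78755882-78773475. On the FPKM scale, which divides by gene length, Ncstn had the highest median over 50 libraries at 7.65 and Rfng followed at 5.97, and these held the top ranks of the 9 in every library. Lfng had a median of 1.35 FPKM and Pofut1 of 1.22, whose ranges overlapped. Adam10 at 0.749, Maml1 at 0.718, Mfng at 0.627 and Numb at 0.536 also had overlapping ranges. Rbpj was lowest in every library, with a median of 0.156 FPKM. Its annotated exons add up to 12750 bases while its longest annotated transcript has 5485, so its level per length depends on which of these is used. Rbpj also has a paralog and processed copies in the mouse genome. Rbpj-ps3 received 1154 counts over all libraries and Rbpjl 624, against 21196 for Rbpj. How reads that match more than 1 copy were counted is not stated, so the uncertain share of its signal is not known.

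**Figure D1:**
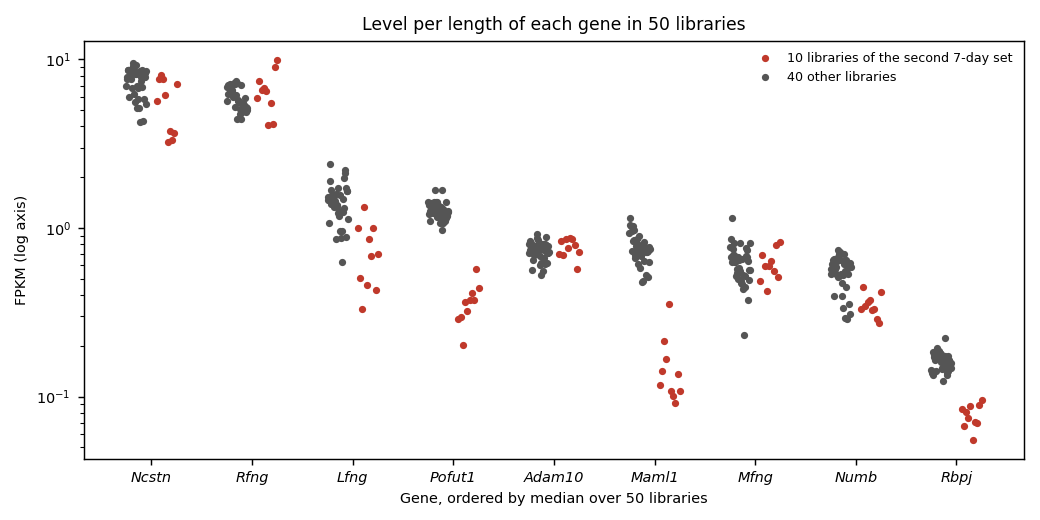
FPKM of each gene in every library on a log axis, ordered by the median over 50 libraries, with the 10 libraries of the second 7-day set in red. Ncstn and Rfng lie highest and Rbpj lowest in every library, and the red points of Maml1, Pofut1 and Rbpj lie apart from the others. FPKM values were scaled in separate blocks of libraries, and these red points also lie apart from the others of their own block.

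Few of these genes differed between treatments by more than the spread between libraries. In 8 comparisons between treatments at the same time and set, 1 of the 72 tests of a member passed an adjusted p of 0.05 in edgeR's quasi-likelihood test. That was Ncstn in aN1aN2aN3 against aJ1aJ2 at 7 days, where 19.6% of all tested genes passed. The share of all genes that passed was 0.573% for aJ1aJ2 against RW at 15 hours, 1.68% for aN1aN2 against RW and 0.13% for aN1aN2 against aJ1aJ2 at that time, and 0.179% for aJ1aJ2 against RW at 5 days. It was 0% for aN1aN2 against RW at 5 days, for aN1aN2 against aJ1aJ2 at 5 days and for aJ1aJ2 against RW in set 1 at 7 days. In those last 3 comparisons 1848, 778 and 1968 genes had an unadjusted p under 0.05, and DESeq2 called 467, 75 and 473. The deposited FPKM values were scaled in 2 blocks of libraries. At 15 hours aN1aN2 is in another block, and in another series of sample IDs, than RW and aJ1aJ2. For that group, block and treatment cannot be told apart. The tests use counts, which the FPKM scaling does not change, so block names only the group of libraries there. The medians of the 9 log2 differences were -0.03 and 0.04 at 15 hours, -0.0049 and -0.02 at 5 days and -0.02 at 7 days for the comparisons with RW, beside -0.03, 0.01, -0.06, -0.07 and 0.01 over all genes.

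**Figure D2:**
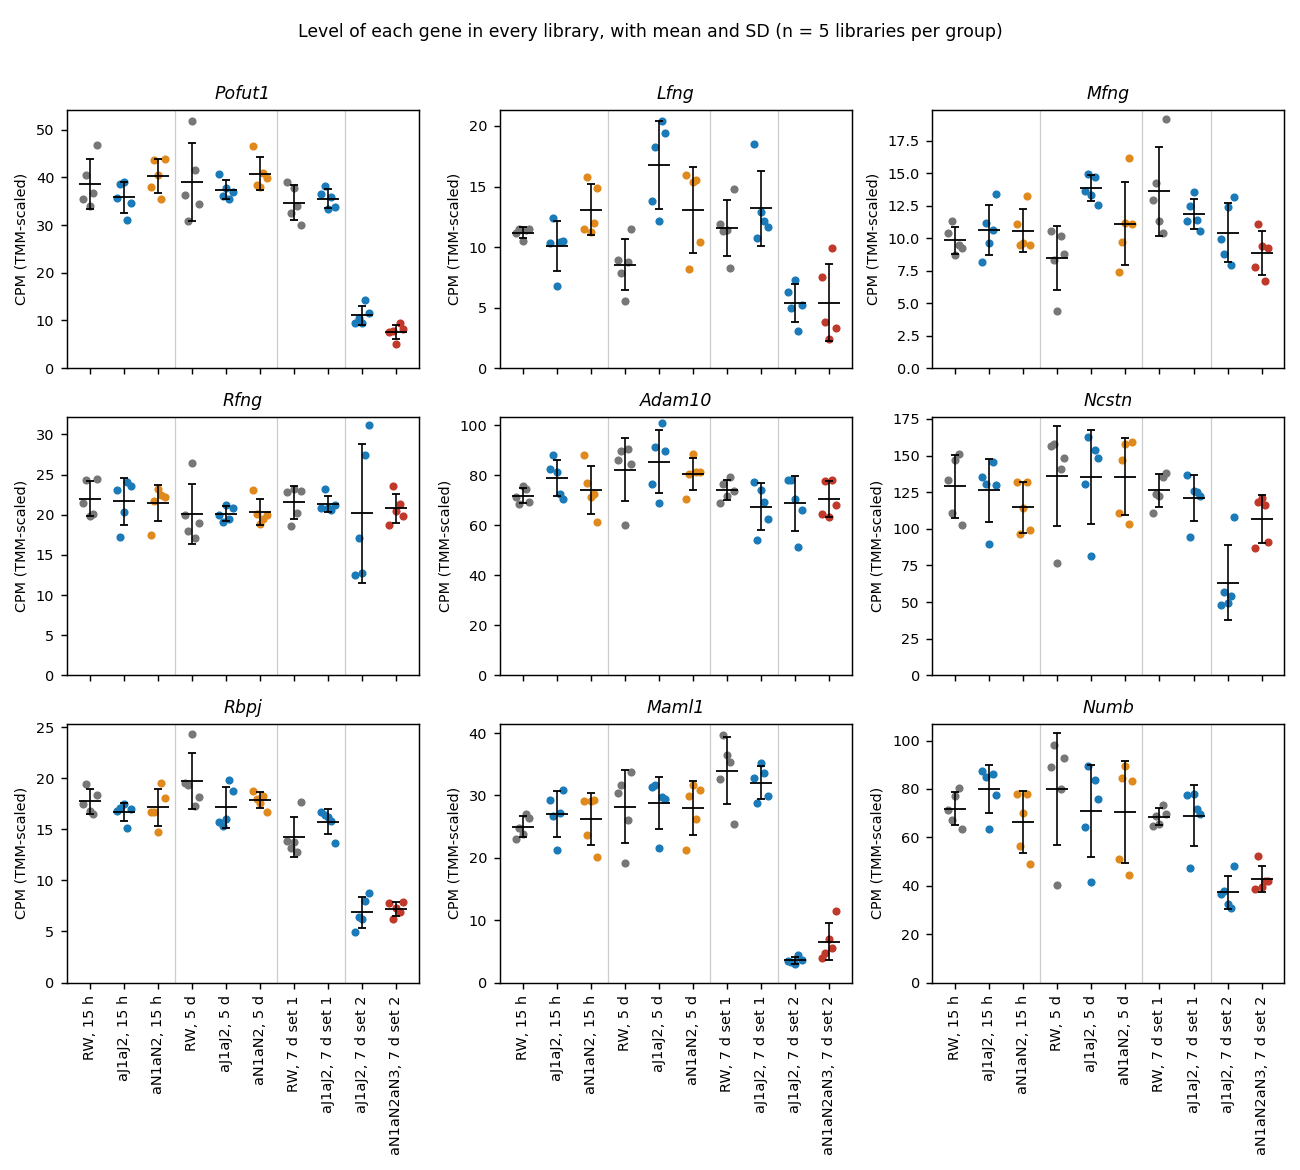
CPM of each gene in every library, 1 panel per gene, with the mean and SD of the 5 libraries of each group as black bars. Lfng and Mfng of aJ1aJ2 at 5 days lie above RW without overlap, and Pofut1, Rbpj and Maml1 are lowest in both groups of set 2.

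The fringe genes Lfng and Mfng gave the largest differences between ligand blockade and control. Lfng adds N-acetylglucosamine to O-fucose on Notch. Levels across libraries are given in CPM, the count relative to the TMM-scaled library total. At 5 days Lfng was at 8.92, 7.89, 5.59, 8.80 and 11.5 CPM in RW replicates 1 to 5. In aJ1aJ2 it was 13.8, 18.3, 12.1, 20.4 and 19.4 CPM. Every aJ1aJ2 library lay above every RW library, which also held for 1.69% of all tested genes. The means were 16.8 ± 3.64 and 8.53 ± 2.11 CPM (SD, n = 5), a log2 difference of 0.97 (SE 0.23, 95% interval from 0.51 to 1.42) or 1.957-fold. The unadjusted edgeR p was 0.000948 and the adjusted p 0.117, so the difference was not called.

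Whether this Lfng difference was called depended on the analysis. DESeq2 gave an adjusted p of 0.00702 and called 2.38% of genes, while limma voom with library quality weights gave 0.000497 and called 18.9%. A fit of all 50 libraries gave 0.0344 and called 1.87%. Without the libraries whose Tg share was below 10%, a choice made after seeing the data, edgeR gave 0.0372 and called 2.93%. Over all 11 alternatives the log2 difference ran from 0.54 to 1.01 and the adjusted p from 0.000497 to 0.294, and with any 1 library left out from 0.86 to 1.09 and from 0.0873 to 0.327.

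Mfng, which has the same enzymatic activity as Lfng, stood in the same order at 5 days. RW replicates 1 to 5 had 10.6, 8.34, 4.37, 10.2 and 8.82 CPM. The aJ1aJ2 libraries had 13.6, 15.0, 13.3, 14.7 and 12.6 CPM. Both groups were again without overlap, with the narrower spread under ligand blockade. The means were 13.8 ± 0.997 and 8.46 ± 2.47 CPM (SD, n = 5), a log2 difference of 0.70 (SE 0.23, adjusted p = 0.242), which was not called. It passed in 2 of 11 alternatives, voom with quality weights (0.53, adjusted p = 0.00271) and the fit of all 50 libraries (0.71, adjusted p = 0.0357). The third fringe gene, Rfng, differed by -0.0049 (SE 0.13, interval -0.25 to 0.24).

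Receptor blockade at 5 days gave intermediate values. Lfng was at 16.0, 8.17, 15.3, 15.5 and 10.4 CPM in aN1aN2 replicates 1 to 5, so 2 of the 5 libraries reached into the RW range. The log2 difference from RW was 0.60 (SE 0.23, adjusted p = 0.364) and from aJ1aJ2 -0.36 (SE 0.23, adjusted p = 1.00). Mfng had 7.43, 9.69, 11.2, 16.2 and 11.1 CPM, a log2 difference of 0.38 from RW (SE 0.23, adjusted p = 0.682). The comparisons of aJ1aJ2 and of aN1aN2 share the same RW libraries, including replicate 3, which had the lowest Lfng and Mfng of the control group.

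Other cell types were looked at beside these 5-day values, as summed CPM of marker lists. Macrophage markers ran from 134 to 163 in RW and from 93.7 to 169 in aJ1aJ2. B cell markers ran from 3.86 to 8.57 and from 7.21 to 52.0, T cell markers from 1.17 to 7.43 and from 4.77 to 35.2, and endothelial markers from 424 to 789 and from 535 to 889. The ranges of every one of these lists overlapped, and thyrocyte markers ran from 8064 to 495655 and from 25462 to 508358. No gene of these lists was at 0 throughout either group. Their part in the fringe values was not tested.

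At 15 hours Lfng did not stand apart. RW replicates had 11.1, 11.5, 10.5, 11.4 and 11.5 CPM, and aJ1aJ2 replicates had 10.3, 12.4, 6.78, 10.4 and 10.5 CPM. Here 4 of the 5 aJ1aJ2 libraries were below the RW mean, and the log2 difference was -0.15 (SE 0.15, adjusted p = 1.00). The aN1aN2 libraries had 11.5, 15.8, 11.2, 12.0 and 14.9 CPM, 0.37 above aJ1aJ2 on the log2 scale (SE 0.15, adjusted p = 0.317). That last comparison crosses the scaling blocks. At 7 days in set 1 the RW libraries had 11.9, 11.3, 11.4, 8.27 and 14.8 CPM of Lfng. The aJ1aJ2 libraries had 18.5, 10.7, 12.9, 12.2 and 11.7 CPM, a log2 difference of 0.19 (SE 0.18, adjusted p = 0.654) in which 1 library, replicate 1, lay far above the rest. Mfng in set 1 was at 12.9, 14.2, 11.3, 10.4 and 19.2 CPM in RW and at 11.4, 12.5, 13.5, 11.4 and 10.5 CPM in aJ1aJ2. The ligand-blocked libraries were all below the RW mean of 13.6, which includes replicate 5 at 19.2, but the highest was close to it. The ranges overlapped, and the edgeR log2 difference was -0.20 (adjusted p = 0.617).

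Whether the effect of ligand blockade differed between times was tested as an interaction over 40 libraries. The 5-day libraries were all scaled in a different block from the control and ligand-blocked libraries of the other times. Each effect was taken within its own block, but contrasts that involve 5 days compare effects between blocks. Time and block cannot be separated in them. For Lfng the effect at 5 days exceeded that at 15 hours by 1.09 (SE 0.29, adjusted p = 0.0540), next to the threshold, in a contrast that called 0.981% of genes. It passed in 5 of 8 alternatives and with 8 of 40 libraries left out in turn, over an adjusted p of 0.000309 to 0.151. For Mfng the same contrast gave 0.57 (SE 0.28, adjusted p = 0.400). From 5 to 7 days the effect on Mfng differed by -0.91 (SE 0.28, adjusted p = 0.108) and that on Lfng by -0.79 (SE 0.29, adjusted p = 0.203), where 0.676% of genes passed. No member passed in these contrasts, nor between 15 hours and 7 days, where 0.3% of genes passed, nor for aN1aN2 between 15 hours and 5 days, where 3.14% passed.

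**Figure D3:**
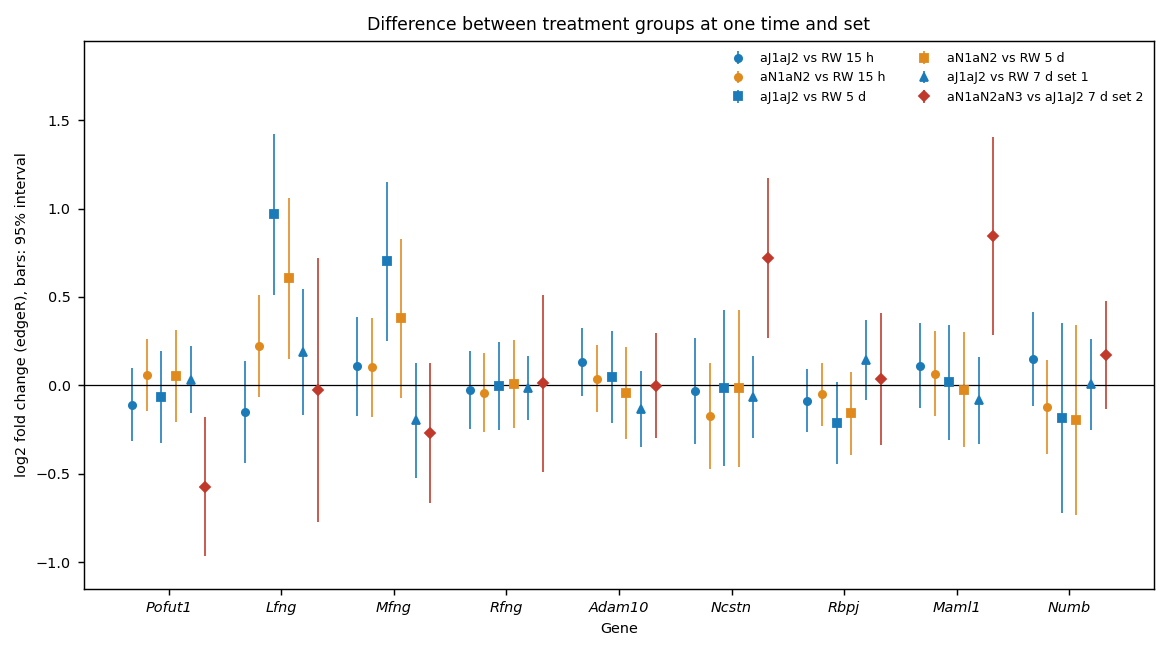
Log2 fold change of each gene in 6 treatment comparisons, from edgeR, with bars for the 95% interval. Lfng and Mfng at 5 days lie highest among the comparisons with RW, and Ncstn, Maml1 and Pofut1 lie off 0 in aN1aN2aN3 against aJ1aJ2.

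The sequence before the Lfng start is shown because Lfng gave the largest difference from control among the members. Rbpj binds the core TGGGAA, most often as GTGGGAA, and repressors of the Hes and Hey families bind E-boxes such as CACGTG. The 250 bases before the RefSeq start lie on the plus strand at chr5:140607091-140607340 of GRCm38.p6, and are printed 5′ to 3′ with matches to TGGGAA on either strand in capitals.
Lfng: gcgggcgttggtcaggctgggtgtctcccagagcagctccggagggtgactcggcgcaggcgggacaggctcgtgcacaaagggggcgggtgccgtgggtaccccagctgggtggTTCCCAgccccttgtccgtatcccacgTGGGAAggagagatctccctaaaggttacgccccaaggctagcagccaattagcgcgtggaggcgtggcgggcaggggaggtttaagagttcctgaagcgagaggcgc
TGGGAA was found 135 to 130 bases before the start on the minus strand and 108 to 103 bases before it on the plus strand. The second match is also a GTGGGAA, and it overlaps a CACGTG at 112 to 107 bases before the start. RefSeq starts were found for 8 of the 9 members, at 11 start sites, and Mfng had none in the table. Among these 8, TGGGAA was found before Rbpj and Lfng, GTGGGAA before Lfng, and CACGTG before Lfng and Adam10. Among all 32851 windows of the same length, 21.59% held TGGGAA, 5.415% held GTGGGAA and 6.021% held CACGTG on either strand. A match is a description of the letters and says nothing about binding.

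Pofut1, the fucosyltransferase on whose product the fringe enzymes act, passed in no comparison with RW. Outside set 2 its means ran from 34.7 ± 3.69 CPM in RW of set 1 to 40.7 ± 3.46 CPM in aN1aN2 at 5 days (SD, n = 5), and its log2 differences from RW from -0.11 to 0.06. In set 2 it had 9.48, 10.6, 9.44, 14.4 and 11.5 CPM in aJ1aJ2. It had 7.53, 7.76, 5.18, 9.43 and 8.15 CPM in aN1aN2aN3. The groups touched without overlapping, and 6.65% of all tested genes were lower without overlap there. The log2 difference was -0.57 (SE 0.20, adjusted p = 0.0638) and was not called. It passed with voom weights (-0.46, adjusted p = 0.0407) and in the fit of all 50 libraries (-0.54, adjusted p = 0.00147).

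Adam10, which makes the ligand-dependent cut outside the membrane, passed in no comparison. Its log2 differences from RW ran from -0.13 to 0.13, and in set 2 it differed by -0.0021 (SE 0.15, interval -0.30 to 0.29) between aN1aN2aN3 and aJ1aJ2.

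Ncstn was higher under blockade of the 3 receptors than under ligand blockade. In aJ1aJ2 of set 2 it had 47.8, 57.1, 49.3, 54.2 and 108 CPM. In aN1aN2aN3 it had 86.8, 118, 121, 116 and 91.2 CPM. Replicate 5 of aJ1aJ2 lay inside the range of the other group, and the remaining 4 lay below all of it. The means were 106.7 ± 16.3 and 63.3 ± 25.4 CPM (SD, n = 5), a log2 difference of 0.72 (SE 0.23, interval 0.27 to 1.17) or 1.65-fold, with an edgeR adjusted p of 0.0464. Among all tested genes 3614 of 18450 passed in this comparison.

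That call was close to its threshold. It was lost, at values from 0.64 to 0.78, when any 1 of 8 of the 10 libraries was left out, with adjusted p up to 0.103. It was kept without aN1aN2aN3 replicate 1 (0.79, adjusted p = 0.0454) and without aJ1aJ2 replicate 5 (1.00, adjusted p = 0.00244). In aJ1aJ2 of set 1 the level of Ncstn was 136.5, 94.7, 126, 125 and 123 CPM, with 4 of the 5 libraries above every library of set 2. Against RW its log2 differences ran from -0.17 to -0.02.

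Cell markers moved with the same comparison. Summed thyrocyte markers were 13067 to 25173 CPM in aJ1aJ2 and 27818 to 48885 CPM in aN1aN2aN3, and those of C cells, which make calcitonin, 7144 to 18382 and 22163 to 36464 CPM. Adipocyte markers were 2222 to 3815 and 214 to 1072 CPM. These 3 lists did not overlap between the groups, and none of their 10, 4 and 6 genes was at 0 throughout a group. Most of the thyrocyte sum was Tg. The part of these cell types in the Ncstn difference was not tested.

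The start of Ncstn lies beside that of Copa, a coatomer gene on the opposite strand, and 195 bases or 4.91% of the Ncstn exons overlap Copa. Copa differed by 0.25 (SE 0.18, adjusted p = 0.331) between the same groups. The counts are not stated to use strand, so reads in the overlap cannot be assigned to one of these genes. The 250 bases before the RefSeq start of Ncstn, on the minus strand at chr1:172082750-172082999 of GRCm38.p6, are shown because it was the member that passed between treatments.
Ncstn: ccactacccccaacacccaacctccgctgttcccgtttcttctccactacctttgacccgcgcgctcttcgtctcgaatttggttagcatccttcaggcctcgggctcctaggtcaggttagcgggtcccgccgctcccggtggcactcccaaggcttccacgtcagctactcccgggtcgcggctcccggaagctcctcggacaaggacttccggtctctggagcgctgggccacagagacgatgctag
None of the 3 motifs was found in these letters, so no capitals appear.

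Numb was the member whose level followed the summed thyrocyte markers of a library, which are mostly Tg, most closely. Its range was 40.4 to 98.0 CPM in RW and 41.5 to 89.5 CPM in aJ1aJ2 at 5 days, with the lowest value of each group in its replicate 3, the libraries with the lowest Tg shares of their groups. Its log2 differences from RW ran from -0.20 to 0.15, and it differed by 0.17 (SE 0.16, adjusted p = 0.464) between aN1aN2aN3 and aJ1aJ2. After subtracting group means, log2 CPM of Numb correlated with summed thyrocyte markers over 50 libraries with Pearson's r = 0.91 and Spearman's rho = 0.89. Without the 2 libraries farthest from the median of the markers r was 0.89. The same values for Ncstn were 0.81, 0.85 and 0.76, and for Adam10 0.68, 0.59 and 0.56. Other lists also went with these genes. With mural cell and skeletal muscle markers Pearson's r was -0.70 and -0.69 for Numb and -0.50 and -0.56 for Ncstn. For Adam10 it was -0.74 and -0.70, farther from 0 than with thyrocyte markers. Rfng (0.63 and 0.53) and Pofut1 (0.62 and 0.61) went the other way. With endothelial markers r was 0.70 for Numb, 0.61 for Ncstn and 0.57 for Adam10. These are descriptions of libraries that share a total of counts, which thyroglobulin transcripts take up to differing degrees.

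**Figure D4:**
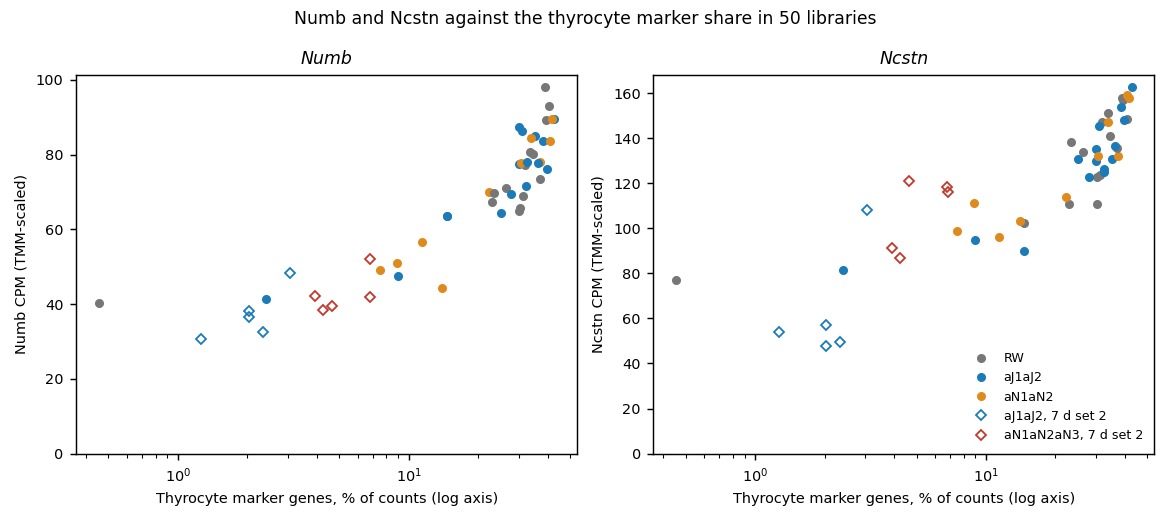
CPM of Numb (left) and Ncstn (right) in 50 libraries against the percentage of counts from thyrocyte markers, on a log axis, with colours for the treatment and open diamonds for set 2. Most of these marker counts are Tg. Within groups both genes tend to be lower in libraries with fewer thyrocyte marker counts, as in RW replicate 3 at 5 days on the far left. Across groups this order does not hold throughout. All set 2 libraries hold more thyrocyte counts than that library, yet most aJ1aJ2 ones have less of both genes.

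Each gene was also set beside the 2 genes that followed it most closely over the 50 libraries by the same group-centred Pearson's r. Numb went with App (0.95) and Cachd1 (0.94), and Ncstn with Atg7 (0.95) and Grn (0.94). Numb and Ncstn went with each other at 0.88. Maml1 went with Kmt2b (0.92) and Cdk13 (0.90), Rfng with Ncln (0.91) and Mgat4b (0.90), and Adam10 with Zscan29 (0.87) and 2610002M06Rik (0.84). Pofut1 went with Sytl2 (0.82) and Sdk1 (0.82). The fringe genes differed here: Lfng went with Lair1 (0.75) and Tlr11 (0.74), whereas Mfng went with Slc1a5 (0.74) and Gm20324 (0.73). Lfng also went with macrophage markers at 0.64. Spearman's rho there was 0.51, and r was 0.52 without the 2 libraries farthest from the median of those markers. Rbpj had the loosest partners, Eif3f (0.69) and Zrsr1 (0.65). Lfng and Mfng correlated with each other at 0.15, so within groups their libraries were not ordered alike.

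Rbpj, which carries the intracellular part of Notch to its sites on DNA, passed in no treatment comparison. Its means against RW differed by -0.21 to 0.14 on the log2 scale, and by 0.04 (SE 0.19, adjusted p = 0.904) between aN1aN2aN3 and aJ1aJ2. It had the smallest spread within groups, a pooled SD of 0.17 on the log2 scale, while Lfng had the largest at 0.41. Maml1, the coactivator in the same complex, differed from RW by -0.09 to 0.11. In set 2 it was at 3.49, 3.34, 2.95, 4.38 and 3.61 CPM in aJ1aJ2 and at 3.91, 4.75, 6.98, 5.55 and 11.5 CPM in aN1aN2aN3. All 5 libraries of the receptor blockade were above the aJ1aJ2 mean and the ranges overlapped. The log2 difference was 0.84 (SE 0.29, adjusted p = 0.0565) and was not called, while voom with weights (0.77, adjusted p = 0.0171), DESeq2 (0.87, adjusted p = 0.0274) and the fit of all 50 libraries (0.88, adjusted p = 0.000415) called it. The antisense gene Gm26542 overlaps 135 bases of Maml1 exons and differed by -1.09 (SE 0.29, adjusted p = 0.0231), in the other direction.

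The largest differences of the members were between the 2 sets of aJ1aJ2 libraries at 7 days, which share treatment and time. Set and any handling that went with it cannot be told apart. Of the 9 members 6 were lower in set 2 and none was higher, in a contrast in which 64% of all genes passed and 29.9% passed as lower. Maml1 was at 32.1 ± 2.65 CPM in set 1 and at 3.55 ± 0.524 CPM in set 2 (SD, n = 5), a log2 difference of -3.14 (SE 0.23, adjusted p = 5.50e-10), to 0.114 of its level in set 1. Its set 1 libraries had 32.8, 28.8, 35.2, 33.6 and 29.9 CPM. Pofut1 was at 35.5 ± 1.98 and 11.1 ± 2.04 CPM, a log2 difference of -1.64 (SE 0.15, adjusted p = 7.17e-09), from set 1 values of 36.5, 38.2, 33.4, 35.8 and 33.8 CPM.

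Both nuclear partners were lower in set 2, by different amounts. Rbpj had 16.7, 16.4, 16.2, 15.8 and 13.7 CPM in set 1 and 4.99, 6.45, 6.21, 8.02 and 8.77 CPM in set 2, a log2 difference of -1.16 (SE 0.15, adjusted p = 1.14e-06). Lfng in set 2 was at 6.29, 5.01, 7.27, 3.11 and 5.21 CPM, with a log2 difference of -1.24 (SE 0.32, adjusted p = 0.00212). For Maml1, Pofut1, Rbpj and Lfng every set 2 library was below every set 1 library, which also held for 22% of all genes. Ncstn differed by -0.90 (SE 0.20, adjusted p = 0.000475) and Numb by -0.85 (SE 0.15, adjusted p = 6.12e-05), with overlapping groups. Copa, which shares exon bases with Ncstn, differed by -0.85 (SE 0.15, adjusted p = 6.81e-05), and reads in that overlap cannot be assigned. Mfng (-0.14, SE 0.19), Rfng (-0.05, SE 0.19) and Adam10 (0.07, SE 0.14) were not called. Voom with quality weights did call Rfng (-0.50, adjusted p = 0.000358).

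Thyrocyte markers differed between the same groups. Their summed level ran from 110111 to 397716 CPM in set 1 and from 13067 to 25173 CPM in set 2, without overlap, and none of the 10 genes was at 0 throughout a group. Numb and Ncstn, whose levels followed these markers within groups, are among the members that were lower in set 2. Most of the thyrocyte sum was Tg, and the part of Tg or of thyrocyte content in these differences was not tested.

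These values stand in a contrast that differed by transcript length over the whole genome. Over 4 bins with equal numbers of genes, the median log2 difference of all genes was 1.02 in the bin with the shortest transcripts, then 0.30, -0.06 and -0.75 in the bin with the longest, where 55.9% of genes were called lower. Rbpj, Maml1, Pofut1 and Adam10 belong to the longest bin, and the fringe genes to the second. Maml1 was at the 2.77th percentile of all genes and Pofut1 at the 11.3th, with Lfng at the 16.3th, Rbpj at the 17.9th, Ncstn at the 23.4th and Numb at the 24.4th. Adam10, with a transcript of 4593 bases, was at the 49.5th percentile, so the members of the longest bin were far apart. GC content showed a second trend, with medians of 0.67, 0.16, -0.12 and -0.41 from the lowest to the highest of 4 bins, and 15.6% to 41.9% of genes called lower. Maml1 and the 3 fringe genes belong to the bin with the highest GC content, in which Mfng and Rfng lay near 0. Over all 9 the median was -0.90, beside 0.09 over all genes. The part of length and GC content in the single values was not tested.

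**Figure D5:**
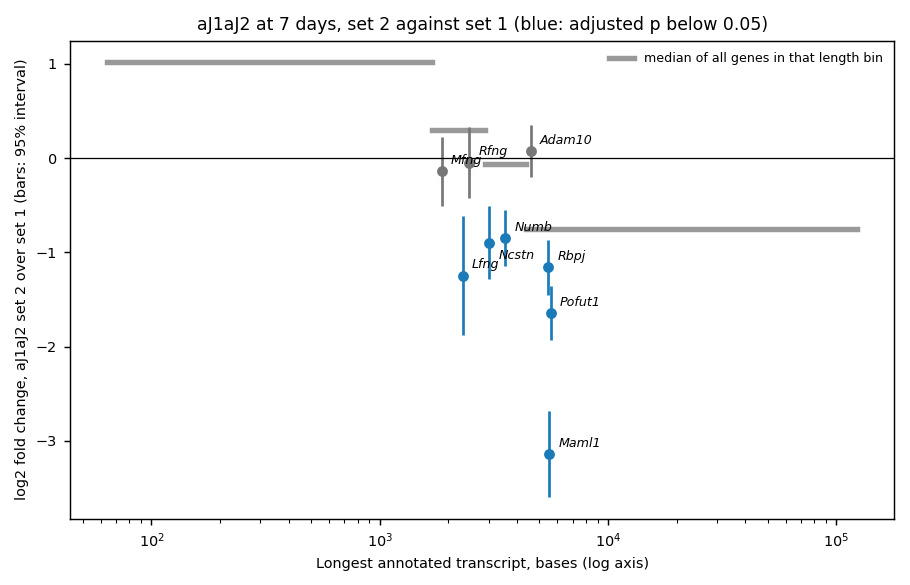
Log2 fold change of each gene between aJ1aJ2 of set 2 and set 1 at 7 days against the length of its longest annotated transcript on a log axis, with bars for the 95% interval and blue for an adjusted p below 0.05. Grey lines give the median of all genes in each of the 4 length bins, and Maml1 at -3.14 lies below the -0.75 of the longest.

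The rest of the pathway was followed in 8 lists with 51 tested genes. In comparisons with RW, 3 of these passed, all lower and all at 15 hours. Notch3, a receptor that is itself a Notch target in mural cells, fell in aJ1aJ2 from 43.4 to 23.5 CPM, a log2 difference of -0.89 (SE 0.18, adjusted p = 0.0443). In aN1aN2 the γ-secretase subunit Psenen fell from 1.94 to 0.915 CPM (-1.08, SE 0.23, adjusted p = 0.0283) and the ligand Dll4 from 16.5 to 8.04 CPM (-1.04, SE 0.18, adjusted p = 0.00847). Dll4 was also lower in aN1aN2 than in aJ1aJ2 at 15 hours (-0.999, SE 0.18, adjusted p = 0.0446). Both results of aN1aN2 against RW, and this one, cross the 2 blocks of libraries. Genes on the opposite strand overlap 6.03% of the exon bases of Notch3 and 5.56% of Dll4. For Psenen, with 2383 counts over all libraries, Gm49396 overlaps 8.71% and had 8587 counts. U2af1l4 overlaps 9.33% of Psenen and had 46 counts. Reads in these overlaps cannot be assigned.

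The 15-hour calls differed in how well they held. Notch3 remained called in 4 of 11 alternatives and with 3 of 15 libraries left out in turn, over log2 differences of -0.95 to -0.36. Summed mural cell markers ran from 459 to 2498 CPM in RW and from 350 to 1946 CPM in aJ1aJ2, with overlap, and their part in the Notch3 value was not tested. Psenen remained called in 7 of 9 alternatives and with 7 of 15 libraries left out. Dll4 against RW was called in all 9 alternatives and with each of the 15 libraries left out, but against aJ1aJ2 in 4 of 9 and with 3 of 15. Summed markers of endothelium, where Dll4 is best known, ran from 490 to 759 CPM in RW and from 478 to 698 CPM in aN1aN2, and their part in the Dll4 value was not tested.

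At 5 days and in set 1 at 7 days none of the 51 passed. In the list of Notch target genes, all 7 tested were lower under ligand blockade in set 1. Their median was -0.63, beside 0.01 over all genes, and 5 had an unadjusted edgeR p under 0.05, as did 11.6% of all genes. At 5 days the list had medians of -0.38 for aJ1aJ2 and -0.09 for aN1aN2, beside -0.06 and -0.07 over all genes. In each of these, 2 of the 7 were higher. For ligand blockade at 5 days the smallest p in each list belonged to Aph1c of γ-secretase (0.96), the protease Adam17 (-0.35), the xylosyltransferase Gxylt2 (-0.60), the coactivator Maml3 (0.35), the corepressor Spen (0.12), the ubiquitin ligase Neurl1b (0.41), the target gene Hey1 (-0.68) and the receptor Notch4 (0.39), as log2 differences. For ligand blockade at 7 days the genes chosen in this way included Psen2 (-0.21), Adam17 (-0.20), Gxylt2 (-0.63), Snw1 (0.32), Neurl1b (-0.33), Hey1 (-0.72) and Notch4 (0.23). For aN1aN2 at 5 days they included Adam17 (-0.20), Xxylt1 (0.17), Maml2 (0.19), Cir1 (-0.30), Dtx2 (-0.27), Notch3 (-0.93) and Dll1 (-0.35). Among the pathway genes for which the effect of aN1aN2 was lower at 5 days than at 15 hours were Adam17 (-0.52, adjusted p = 0.0153) and Cir1 (-0.92, adjusted p = 0.0292), each by an edgeR interaction term that also crosses the blocks. Both were called in 6 of 8 alternatives.

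Between aN1aN2aN3 and aJ1aJ2 in set 2, 3 of the 51 pathway genes were higher and 1 was lower, beside the 19.6% of all genes that passed and the 9.19% that passed as higher. Aph1c, a γ-secretase subunit like Ncstn, rose from 1.71 to 5.84 CPM (1.73, SE 0.29, adjusted p = 0.00327). Its groups did not overlap, and 1542 of all 18450 tested genes were higher without overlap there. Notch2 rose from 15.6 to 29.9 CPM (0.91, SE 0.25, adjusted p = 0.0252) and Maml3, a relative of Maml1, from 6.50 to 12.0 CPM (0.85, SE 0.25, adjusted p = 0.0352). Gxylt2, which extends O-glucose on Notch, fell from 2.37 to 1.00 CPM (-1.26, SE 0.35, adjusted p = 0.0259). Aph1c and Notch2 were called in all 9 alternatives, and Maml3 and Gxylt2 in 6 of 9. With 1 of the 10 libraries left out in turn, Aph1c was called 10 times, Gxylt2 8, Notch2 5 and Maml3 4. Between the sets of aJ1aJ2 libraries 6 of the 51 were higher and 33 lower in set 2, with a median of -0.94, beside the 29.9% of all genes that passed as lower and the 55.9% in the bin with the longest transcripts. All 7 receptors and ligands were among the lower ones, and 6 of 7 coactivators were, with Ep300 at -1.95 and Snw1, the exception, at 1.63. Slirp on the opposite strand overlaps 44.2% of the exon bases of Snw1, so its value is uncertain.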

How the data were processed

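The authors deposited read counts per gene and FPKM values per gene for 50 libraries. The submitters' processing notes name GSNAP and limma without versions, while the build, annotation, counting tool and strand setting are details not given in the sources used here. Values in the deposited FPKM tables followed the counts by 1 factor per library within blocks of 30 and 20 libraries. Over all 50 the CV was 8.70%. Tests on FPKM were therefore run only within a block, and genes were ranked within a library. The FPKM medians and ranges over 50 libraries, and the plot of FPKM in every library, span both blocks and were not corrected for this.

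For tests, edgeR 4.0.16 (R 4.3.3) took the deposited counts unchanged, with TMM factors, genes kept by filterByExpr (10 counts, total 15), robust quasi-likelihood fits, and Benjamini-Hochberg adjustment over all genes tested at 0.05. The 95% intervals are normal intervals from the SE. Fits were made for 15 hours (15 libraries), 5 days (15), each 7-day set (10), both sets (20) and, for effects between times, 40 libraries. Values in CPM use TMM over all 50 libraries. The procedure was tested on simulated counts whose spread between libraries was smaller than in these data. That test therefore cannot show its error rate or power here. DESeq2 1.42.0, limma 3.58.1 (voom with weights, and trend on log2 of FPKM plus 0.1 or 1) and other scalings, filters and left-out libraries were alternatives. The same were run for the named pathway genes, a choice made after seeing the data.

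The deposited tables give gene IDs, and 52403 of these were paired with symbols through a separate list of gene names. All 100 pairs of replicates differed beyond counting noise (smallest chi-square per degree of freedom 17.1), so none was merged. Named are the 9 members, genes of the pathway lists that passed or had the smallest p in a list with none, and the 2 closest followers of each member, and some of these are not reported here. Of 144 listed genes, 142 were found. The members and lists were chosen with earlier results of these data known.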

Additional observations from a re-analysis of the deposited data

Results flagged for a closer look

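With 5 libraries in a group, a library was set apart where its gap to the nearest other exceeded 0.71 of the group's range (Dixon's 95% limit). This held for 12 of 90 groups of member values, and chance gives about 1 in 20. All values are CPM. RW replicate 3 at 5 days, the library with the lowest Tg share, was lowest for Adam10 at 60.2 (next 84.3) and for Ncstn at 76.8 (next 140.8). Replicate 3 of aJ1aJ2 at 5 days, also low in Tg, was lowest for Maml1 at 21.5 (next 29.4). Replicate 3 of aJ1aJ2 at 15 hours was lowest for Ncstn at 89.9 (next 129.8).

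In aJ1aJ2 of set 2, replicate 5 was highest for Ncstn at 108.3 (next 57.1). In aN1aN2aN3, replicate 2 was highest for Numb at 52.1 (next 42.1). In aJ1aJ2 of set 1, replicate 2 was lowest for Numb at 47.5 (next 69.5) and highest for Rfng at 23.1 (next 21.3), replicate 5 was lowest for Rbpj at 13.7 (next 15.8), and replicate 1 was highest for Lfng at 18.5 (next 12.9). In RW of set 1, replicate 5 was highest for Rbpj at 17.7 (next 13.8). Replicate 1 of aN1aN2 at 15 hours was lowest for Rfng at 17.5 (next 21.8). What set these libraries apart was not tested.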

How the results depend on the processing

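Over 3717 member values under an alternative, none that had an unadjusted p under 0.05 changed sign, 9 lost their call and 33 gained one, and 221 changed sign with both p at or above 0.05. The cause of the changes was not tested. The 6 calls between the aJ1aJ2 sets held in all 10 alternatives and all 20 left-out libraries, and voom weights added Rfng (-0.50, adjusted p = 0.000358). The members called in aJ1aJ2 against RW at 5 days were 0, but 2 with voom weights, 1 with DESeq2, 1 without low-Tg libraries and 2 with all 50 libraries in 1 fit. In aN1aN2 against aJ1aJ2 at 5 days voom weights called 1 (Lfng, -0.79, adjusted p = 0.0320). In aN1aN2aN3 against aJ1aJ2 the 1 call became 4 with voom weights (Rfng added at 0.52, against 0.01 in edgeR), 2 with DESeq2 and 3 with all 50 libraries. For the aJ1aJ2 effect between 5 days and 15 hours 1 member, Lfng, was called with RLE scaling, TMM without Tg, voom weights, DESeq2 and without low-Tg libraries, and between 7 and 5 days 3 were called with voom weights and 1 with DESeq2. With 1 library left out in turn, members called ran from 0 to 2 for aN1aN2aN3 against aJ1aJ2, from 6 to 6 between the sets, from 0 to 1 for the aJ1aJ2 effect between 5 days and 15 hours, and were 0 to 0 elsewhere.

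Counts of called genes moved as follows. For aJ1aJ2 at 15 hours 106 became 179 with voom weights, 310 with DESeq2, 0 and 0 with limma-trend on FPKM, 48 with only the 2 groups and 162 with all 50 libraries. For aN1aN2 at 15 hours 311 became 510, 941 and 475 with voom, DESeq2 and all 50 libraries, and against aJ1aJ2 24 became 57, 554 and 396, and 11 with only the 2 groups. For aJ1aJ2 at 5 days 33 became 9 without a filter, 3475 with voom, 468 with DESeq2, 0 with only the 2 groups, 537 without low-Tg libraries and 403 with all 50. For aN1aN2 at 5 days 0 became 1507, 467, 66 and 671 with voom, DESeq2, no low-Tg libraries and all 50, and against aJ1aJ2 69, 75 and 18 with voom, DESeq2 and all 50. For aJ1aJ2 in set 1 0 became 20 without a filter, 621 with voom, 473 with DESeq2, 12 without low-Tg libraries and 6 with all 50. For aN1aN2aN3 3614 became 8214 with voom. Leaving out 1 library gave 35 to 127, 120 to 444 and 9 to 44 genes in the 15-hour comparisons in the same order, 0 to 197 (the highest without RW replicate 3), 0 to 9 and 0 to 1 at 5 days, 0 to 20 in set 1, 2042 to 4305 in set 2 and 11890 to 13020 between the sets.

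Replicate numbers were not taken to pair the libraries, since same-numbered libraries correlated at -0.53 to 0.64. Their mean was 0.30 for RW and aJ1aJ2 at 5 days, against -0.03 for other numbers. For RW and aN1aN2 at 15 hours it was 0.36, against -0.09. In the remaining comparisons the same-number mean ran from -0.14 to 0.01. With the replicate number as a block, the Ncstn call was lost (0.79, adjusted p = 0.0736, so 0 members), and called genes became 36 and 186 for aJ1aJ2 and aN1aN2 at 15 hours, 1 for aJ1aJ2 at 5 days and 2100 for aN1aN2aN3. Counting error is widest where counts are low, and Lfng, Maml1 and Mfng had as few as 59, 72 and 86 counts in a library.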
